A study of Mus musculus with 28 samples.

Results

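In mouse embryonic stem cells (mESCs), 816 regions lay in H3K9me2 domains of both cell states under control conditions, stayed in domains of EHMT2-depleted mESCs, and were missing from the domains of EHMT2-depleted 2-cell-like cells (2CLCs). They were found on chromosomes 1 to 19 by laying 4 domain sets over each other. Bases were taken that were inside mESC DMSO, 2CLC DMSO and mESC dTAG domains and outside 2CLC dTAG domains, segments under 1 kb apart were joined, and runs of 25 kb or more were kept. The same run rule applied to every combination of the 4 sets gave 13925 regions, among them 1121 lost only in depleted mESCs, 1435 lost in both depleted cell states and 5495 kept in all 4 sets. The members were chosen by their domain membership in all 4 sets. Widths, boundaries and coverage in these sets are therefore descriptions, and only sequence, gene annotation and a further domain set were not used by the choice.

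The 4 sets come from 1 clone of a BL6/129 hybrid mESC line, EHMT2-dTAG-mcherry MERV-GFP, in which EHMT2 carries a degron and a GFP reporter is driven by elements of the endogenous retrovirus MERVL. Cells were treated for 72 h with the degrader dTAG-13, which removes tagged EHMT2, or with the solvent DMSO, and separated by flow sorting into cells without GFP (mESCs) and with GFP (2CLCs). Each of the 4 conditions has 3 immunoprecipitated and 3 input libraries made by ULI-NChIP, in which unfixed chromatin of few cells is immunoprecipitated, within a series of 28 libraries that also holds bulk mESCs of the line EHMT2-dTAG-mcherry after 24 h in DMSO. By the labels, 2 replicates also received TTNBP, an agonist of retinoic acid receptors, in DMSO and dTAG alike. They are not named, and the study's methods give no such limit, so the part of TTNBP in any value was not tested. GFP level, with no independent marker in these files, defines the cell states. Each condition has a single domain set with no value per library, the depth behind the domains is unknown, and no difference below could be compared with the spread between cultures or tested. The intervals given are over regions, cover counting error only, and treat neighbouring regions as separate.

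H3K9me2, the dimethylated form of lysine 9 of histone H3, is laid down in silent chromatin by EHMT2 (G9a) and its partner EHMT1, often over broad domains that can take in whole genes and the sequence between them. 2CLCs are a transient state of mESC cultures in which MERVL elements and genes of the 2-cell embryo are active. A domain is called from the enrichment of immunoprecipitated over input DNA along the genome, and it is not stated whether the 4 sets share the limits of the call. A region outside a domain is therefore one below the limits of that call, and the amount of the mark was not measured.

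The sequence of the regions is shown first for Adgrl4 and Plppr5, the loci among the 12 widest regions that hold a gene start and few repeated words, and for Kdm4c, the gene of H3K9 methylation that starts in a region. Each promoter below runs from 250 bases before to 50 after the gene's start, on the gene's strand, as given by RefSeq for mm10 (GRCm38), with every CG dinucleotide in capitals.
Adgrl4, chr3:151437632-151437931, + strand, 8 CG: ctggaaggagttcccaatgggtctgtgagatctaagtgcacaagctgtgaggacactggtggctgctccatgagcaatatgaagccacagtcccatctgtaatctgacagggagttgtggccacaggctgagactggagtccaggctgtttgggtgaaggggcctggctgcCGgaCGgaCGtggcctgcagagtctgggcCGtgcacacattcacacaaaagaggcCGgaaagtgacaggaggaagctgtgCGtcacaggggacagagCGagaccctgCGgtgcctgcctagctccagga
Plppr5, chr3:117574977-117575276, + strand, 13 CG: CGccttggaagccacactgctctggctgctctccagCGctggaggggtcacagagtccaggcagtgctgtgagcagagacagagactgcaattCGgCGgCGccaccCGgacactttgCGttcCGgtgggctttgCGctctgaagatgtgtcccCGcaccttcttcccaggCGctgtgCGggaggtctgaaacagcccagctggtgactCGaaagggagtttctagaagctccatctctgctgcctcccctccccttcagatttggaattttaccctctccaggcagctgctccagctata
Kdm4c, chr4:74242247-74242546, + strand, 0 CG: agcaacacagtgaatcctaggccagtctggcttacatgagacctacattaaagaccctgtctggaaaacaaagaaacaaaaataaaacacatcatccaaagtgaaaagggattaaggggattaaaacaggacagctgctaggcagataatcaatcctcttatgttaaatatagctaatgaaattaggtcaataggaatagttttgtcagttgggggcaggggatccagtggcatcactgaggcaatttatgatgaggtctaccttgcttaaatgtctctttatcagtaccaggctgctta

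These promoters differ in CG content from each other, with 13 CG at Plppr5 and 0 at Kdm4c. RefSeq promoters of 81 genes had their start in a region, 70 of them among the 104 genes whose annotated start lay there. The median was 3 CG in 300 bases (order-statistic 95% interval 2 to 4). It was 2 (1 to 2) for 2218 genes with a promoter whose start was kept in all 4 sets. For 10762 genes with a promoter whose start was outside all 4 it was 19 (18 to 19). A gene with several RefSeq promoters can count in more than 1 of these classes, with 1 promoter in each. At least 10 CG were found in 12 of the 81 promoters, or 14.8% (Wilson 95% interval 8.68% to 24.1%), in 9.02% of the kept ones and in 59.9% of all 15687 matched promoters. A CG reads the same on both strands. At least 1 stood in 86.4% of the promoters in regions, in 78.1% of the kept ones and in 95.2% of all promoters.

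Outside promoters, the contrast that recurred across the members was in soft-masked sequence, the interspersed and simple repeats that the reference assembly writes in lower case. To show what sequence of the members looks like, stretches of 200 bases from the centre of the region are given for both loci, on the + strand of GRCm38, with soft-masked bases in capitals. The loci were chosen after the values had been seen.
Adgrl4 region, centre, chr3:151496710-151496909: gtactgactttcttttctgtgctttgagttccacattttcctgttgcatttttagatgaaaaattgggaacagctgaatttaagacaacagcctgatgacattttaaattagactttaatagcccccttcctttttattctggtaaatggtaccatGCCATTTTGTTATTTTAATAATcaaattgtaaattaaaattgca
Plppr5 region, centre, chr3:117676755-117676954: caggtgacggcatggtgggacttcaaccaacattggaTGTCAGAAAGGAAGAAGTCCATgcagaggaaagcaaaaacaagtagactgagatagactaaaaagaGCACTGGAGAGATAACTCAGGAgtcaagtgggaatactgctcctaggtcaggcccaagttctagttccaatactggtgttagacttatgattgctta

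The Adgrl4 region, chr3:151379310-151614309, was 235 kb wide and 26.3% soft-masked, and its longest soft-masked run was 3.01 kb. The nearest segment of at least 25 kb kept in all 4 sets, 30 kb wide and adjoining it, was 59.8% soft-masked and held a run of 8.33 kb. The Plppr5 region, chr3:117574355-117779354, was 205 kb wide and 26.2% soft-masked, with no run of 2 kb or more and a longest run of 1.49 kb. The nearest kept segment, 65 kb wide, was 38.4% soft-masked with a longest run of 4.44 kb. At both loci the region was the poorer in repeats, and its longest run was the shorter.

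The members covered 42.7 Mb. As background, 63.9 of the 943.5 Mb inside the other 3 sets lay outside 2CLC dTAG domains, or 6.77%, in 3389 runs of any width. The mirrored share, bases outside mESC dTAG domains only, was 8.13%. The median width of the members was 40 kb. There were 499 members under 50 kb, 252 from 50 to under 100 kb and 65 of 100 kb or more, and the last group held 23.1% of the bases. At the threshold, 125 members were 25 kb wide, with a median soft-masked share of 26.5% and a median GC content of 40.3%. Just outside it, 5 runs fell short by 1 base, with medians of 27.0% and 39.1%, and 183 runs of 20 kb had medians of 28.3% and 40.0%.

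The 3 widest members stood apart from the rest in their sequence. The region at chr8:19962983-20862981 was 900.0 kb wide, 27.8% of it was unsequenced (N), and 72.2% of its 50-base words without N occurred more than once on the same strand of the chromosome. The region at chr7:38839611-39174609 measured 335 kb, with 29.9% N and 88.8% repeated words, and the region at chr14:6506139-6791137 measured 285 kb, with 84.5% repeated words. The first holds the starts of the predicted genes Gm15319 and Gm21119, the second holds no protein-coding gene, and the third holds the starts of 7 predicted genes, Gm8356, Gm3629, Gm3460, Gm10251, Gm8050, Gm3636 and Gm8362. Reads with several matches were assigned by the aligner, and what this did to the calls there was not tested. Over 20% repeated words were found in 32 members. The 783 members with at most 20% repeated words and 5% N covered 40.0 Mb, with a largest width of 235 kb and a median soft-masked share of 27.6%, against 27.9% over all members.

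Of the remaining 9 of the 12 widest members, 4 lay on chromosome 3, 2 each on chromosomes 1 and 7, and 1 on chromosome 8. The Adgrl4 region holds the whole body of this adhesion G protein-coupled receptor gene, which is known from endothelial cells. The rule fixes the coverage of a gene body wholly inside a member. It was 100% in domains of mESC DMSO, 2CLC DMSO and mESC dTAG and 0% in 2CLC dTAG domains. The Plppr5 region starts just before this gene of the lipid phosphatase-related membrane proteins and took in its whole body, with the same 4 values. The 2CLC DMSO domain around it, 260 kb wide, kept no base in 2CLC dTAG domains. The region at chr3:25809477-25999476, 190 kb, lay inside Nlgn1, and the region at chr8:16942987-17132986, 190 kb, inside Csmd1. Regions of 170 kb lay inside Dpp10, which encodes an auxiliary subunit of potassium channels, at chr1:123640045-123810044, and inside Dlg2, which encodes a scaffold of the postsynaptic density, at chr7:91674540-91844539. The regions at chr1:157944999-158174998, 230 kb, chr3:143909320-144119319, 210 kb, and chr7:69809569-69994568, 185 kb, held no protein-coding gene, and the nearest gene start was 296, 191 and 465 kb from their centres.

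**Figure D1:**
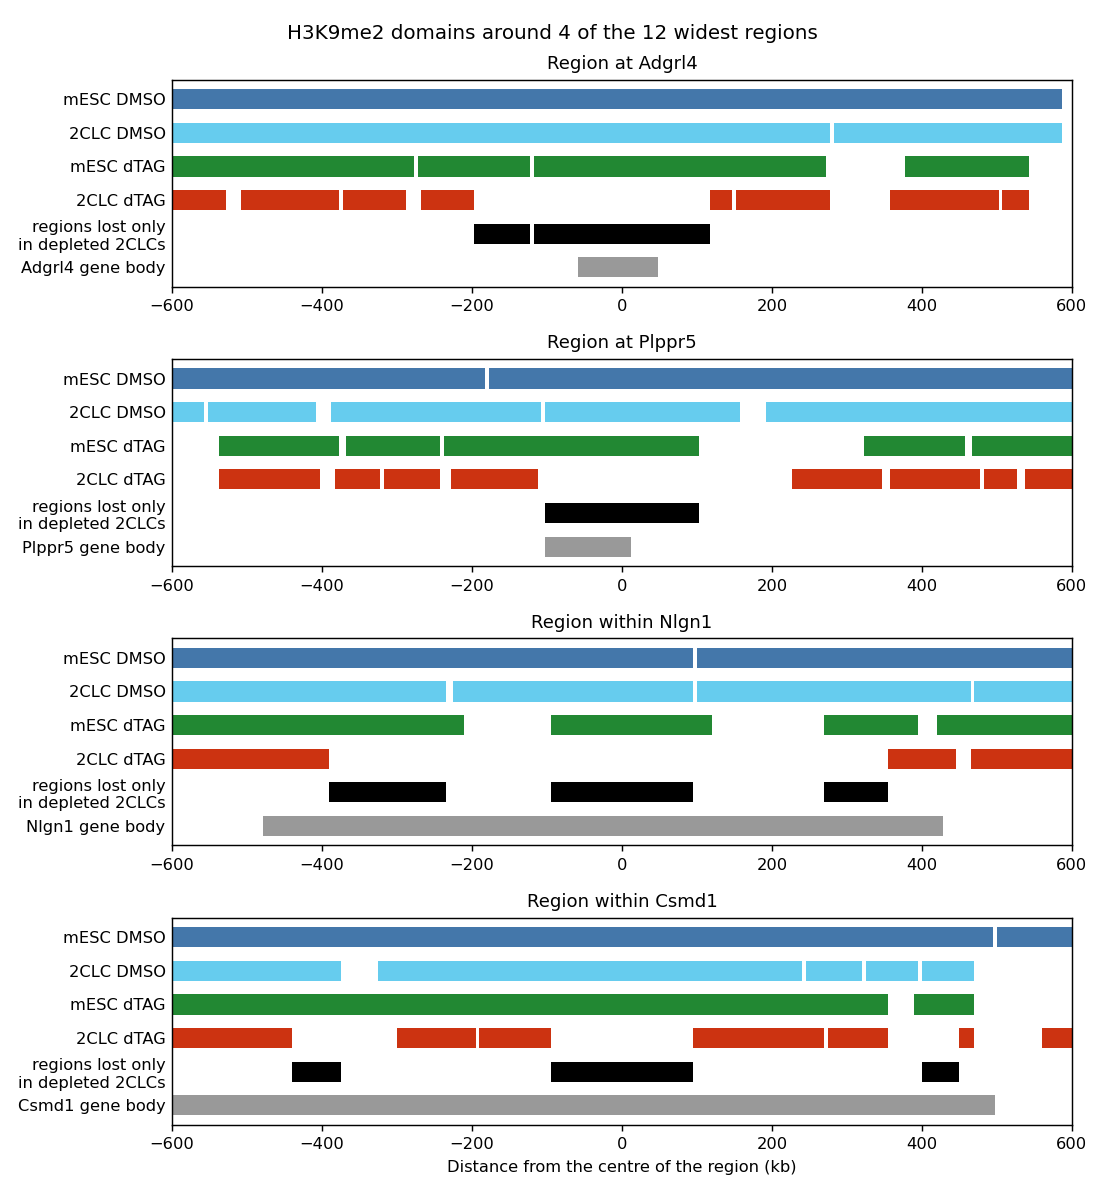
Bars mark H3K9me2 domains of the 4 sorted sets, members and the named gene body within 600 kb of the centre of a region, with distance in kb on the x axis. The region at Adgrl4 is bounded on 1 side by a 2CLC dTAG domain, the Csmd1 region sits between 2 of them, and all 3 Nlgn1 regions fall in a stretch without 2CLC dTAG domains.

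To ask whether the members share sequence features that set them apart from other domain sequence, soft-masked share, GC content and CG density were measured in each, apart from 1 member of 45 kb on chromosome 5 that holds no sequence but N. The median soft-masked share was 27.9% (27.3% to 28.7%), against 41.9% (41.5% to 42.2%) in regions kept in all 4 sets, 28.6% (27.9% to 29.2%) in regions lost only in depleted mESCs and 24.5% (24.2% to 24.9%) in regions lost in both cell states. It was 33.5% in chromosomes 1 to 19 as a whole. The members were below the kept regions on 19 of 19 chromosomes and above the regions lost in both states on 19 of 19. Against the regions lost only in mESCs they were lower on 12 and higher on 7, and the intervals overlap.

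Long soft-masked runs showed the same order. Runs of 2 kb or more held 2.54% of the bases of the members, 3.30% in regions lost only in mESCs, 1.54% in regions lost in both states, 9.71% in kept regions and 4.71% genome-wide. There were 6.01 such runs per Mb in the members and 21.7 per Mb in kept regions, with 8.25 in regions lost only in mESCs and 4.07 in those lost in both. At least 1 run was found in 168 members, or 20.6% (18.0% to 23.5%), against 29.3% (26.7% to 32.0%) of the regions lost only in mESCs, which had the same median width. Which repeat families the runs belong to was not analysed here.

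Immediate neighbours gave the same direction. Flanks of the member's own width on each side were limited to bases kept in all 4 sets. At least 10 kb of such bases, both sides together, was required. This was available for 746 members and not for 70. The median was 27.9% in these members and 37.1% in their flanks, with a median difference of -7.98 percentage points (-9.17 to -7.19), and the member was lower in 602 pairs, or 80.7% (77.7% to 83.4%). The difference was -10.2 points for regions lost only in mESCs and -14.2 points for regions lost in both states. The shift in GC content was small, at -0.12 points (-0.22 to -0.035) between member and flank.

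**Figure D2:**
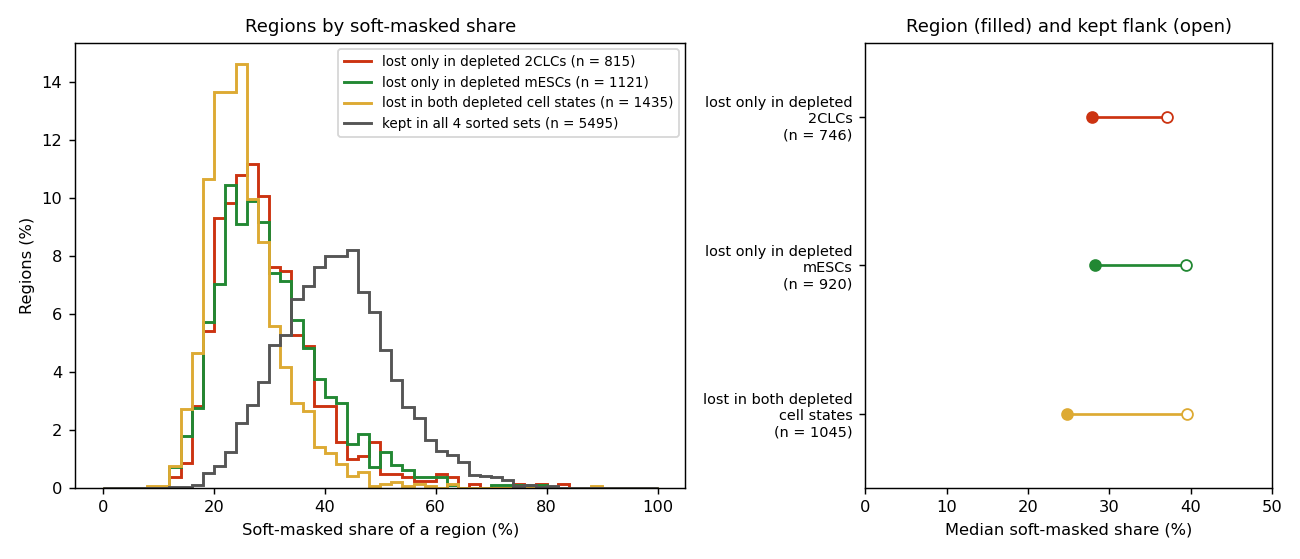
Left, percentage of regions (y axis) by soft-masked share in bins of 2 percentage points (x axis) for members, regions lost only in depleted mESCs, regions lost in both states and kept regions. Right, median soft-masked share of the regions (filled) and of their kept flanks (open), where the members have 27.9% and 37.1%.

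GC content had a median of 39.5% (39.3% to 39.7%) in the members. This was below the regions lost only in mESCs, at 40.1%, on 16 of 19 chromosomes and below the regions lost in both states, at 40.7%, on 17 of 19. Kept regions also had 39.5%, with the members lower on 9 chromosomes and higher on 10. CG dinucleotides numbered 5.78 per kb (5.63 to 5.88), against 6.16 in regions lost only in mESCs, 6.76 in regions lost in both and 6.03 in kept regions. On 19 of 19 chromosomes the members had fewer than the regions lost in both states. The members thus combined a low repeat share with a GC content like that of kept regions.

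The further domain set names neither a cell state nor a treatment and was assigned to no group. It covered 94.1% of the bases of the members, against 94.0% of all bases in the other 3 sets and 63.3% of chromosomes 1 to 19. It covered at least 90% of 742 members and under 10% of 29. The chromosome 7 region of 335 kb, with 88.8% repeated words, was among those hardly covered, at 0.30%. The members and the other domain sequence thus had nearly the same coverage by this set.

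Genes were then laid over the members, to see which kinds lost domains in depleted 2CLCs alone. Protein-coding gene starts numbered 104, or 2.43 per Mb, against 3.50 in regions lost only in mESCs, 2.35 in regions lost in both, 3.41 in kept regions and 8.45 genome-wide. No start lay in 731 members, or 89.6% (87.3% to 91.5%), and the median distance from the centre of a member to the nearest start was 180 kb (153 to 196 kb). As background, 104 of the 3193 starts inside the other 3 sets were in a member, or 3.26%, and 195, or 6.11%, were outside 2CLC dTAG domains in a run of any width. The mirrored share for mESC dTAG domains was 304 of 3302, or 9.21%.

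Gene bodies were counted as well, and this count includes every gene that starts in a member. Of 4143 gene bodies with bases in the other 3 sets, 327 overlapped a member, or 7.89%, and 104 genes started in one. A total of 269 members, or 33.0% (29.8% to 36.3%), lay wholly inside 1 gene body, against 18.9% (17.9% to 20.0%) of kept regions, 24.7% (22.3% to 27.3%) of regions lost only in mESCs and 33.8% (31.4% to 36.3%) of those lost in both. The share was above that of kept regions on 19 of 19 chromosomes and above that of regions lost only in mESCs on 17. Kept regions were wider, with a median of 70 kb against 40 kb for members. A wider region fits inside a gene less readily, and the part of width in this share was not tested. Of the bases that the other 3 sets hold together, members took 9.30% inside protein-coding gene bodies and 3.34% outside them. Gene bodies made up 40.9% of the members' bases, near the 40.3% of chromosomes 1 to 19 as a whole. They made up 34.2% in regions lost only in mESCs, 43.0% in those lost in both and 18.2% in kept regions, which were furthest from the genome's share. Exons made up 1.25% of the members' bases and 1.18% of those of kept regions, against 3.76% of chromosomes 1 to 19.

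Gene length went with this. The genes that overlapped a member had a median length of 219 kb, against 12.1 kb for all genes with bases in the other 3 sets. Of the latter, 1238 of 4143 are on the list of olfactory and vomeronasal receptor genes, with a median length of 6.24 kb. That list also holds trace amine and taste receptor genes. Members overlapped 3.52% of the genes under 100 kb, 17.3% of those from 100 to under 300 kb, 32.6% of those from 300 to under 1000 kb and 34 of 50 genes of 1000 kb or more, or 68.0%. A long gene has more room for an overlap, so the share of bases was compared as well. Members took 3.50% of the bases of the shortest class that lay in the other 3 sets, 9.75% and 9.98% in the middle classes and 13.4% in the longest.

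Neuroligin 1, Nlgn1 (chr3:25426215-26332460, - strand), which encodes a postsynaptic adhesion molecule that binds neurexins, had the most bases in members, 430 kb in 3 regions. Its body was 99.4% inside mESC DMSO domains, 98.3% inside 2CLC DMSO domains and 68.0% inside mESC dTAG domains, and 17.8% inside 2CLC dTAG domains. The regions began 73.0, 333 and 663 kb downstream of the gene start and held 1, 2 and 0 of its exons. The start itself stayed in all 4 sets.

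Csmd1 (chr8:15892537-17535586, - strand), which encodes a transmembrane regulator of complement, had 305 kb in 3 regions. Its body was 99.8% and 91.0% inside domains of mESC DMSO and 2CLC DMSO, 85.2% inside those of mESC dTAG and 59.4% inside those of 2CLC dTAG. The widest of its regions, shown in the map of domains, held 1 exon and was 22.6% soft-masked.

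Ranking by bases favours long genes, and the shortest of the 10 was Nlgn1, at 906 kb. Members took from 11.5% of the body in Ptprd to 47.4% in Nlgn1, with 12.5% in Lsamp. The adhesion and guidance genes in the rest of the 10 were Lsamp, Cntn4 and Dcc. Lsamp, a neuronal adhesion molecule of the immunoglobulin superfamily, had 275 kb in 5 regions, and Cntn4, a contactin of axons, 255 kb in 3. Coverage in mESC dTAG and 2CLC dTAG was 62.2% and 59.2% for Lsamp, so that the 2 depleted states had similar coverage of its body although 5 stretches left in 2CLCs only. For Cntn4 it was 59.6% and 41.5%. Dcc, the netrin receptor, on chromosome 18, had 265 kb in 3 regions, with 92.3% in mESC dTAG and 70.8% in 2CLC dTAG. The receptor tyrosine phosphatase genes Ptprt and Ptprd had 275 kb in 6 regions and 260 kb in 4. Ptprt had 46.1% and 23.7% in the dTAG sets of mESCs and 2CLCs, beside 99.3% and 71.2% in their DMSO sets, and Ptprd had 82.0% and 76.7% in the dTAG sets.

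The remaining genes of the 10 were Sgcd, Grm7 and Anks1b. Sgcd, which encodes delta-sarcoglycan of the muscle membrane complex, had 270 kb in 4 regions, the nearest 4.20 kb from its start, and held 60.9% in mESC dTAG and 37.1% in 2CLC dTAG. Grm7, a metabotropic glutamate receptor, had 260.0 kb in 2 regions. It stayed at 97.8% in mESC dTAG, close to the 99.4% and 99.5% of the DMSO sets, against 68.0% in 2CLC dTAG. Anks1b, which encodes an ankyrin repeat protein of the postsynaptic density, had 255 kb in 3 regions, with 49.6% and 23.6%. Dlg2 had the same 255 kb and was named through its own wide region. In each of these genes 2CLC dTAG had the lowest coverage of the 4 sets, an order that the choice of members favours.

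**Figure D3:**
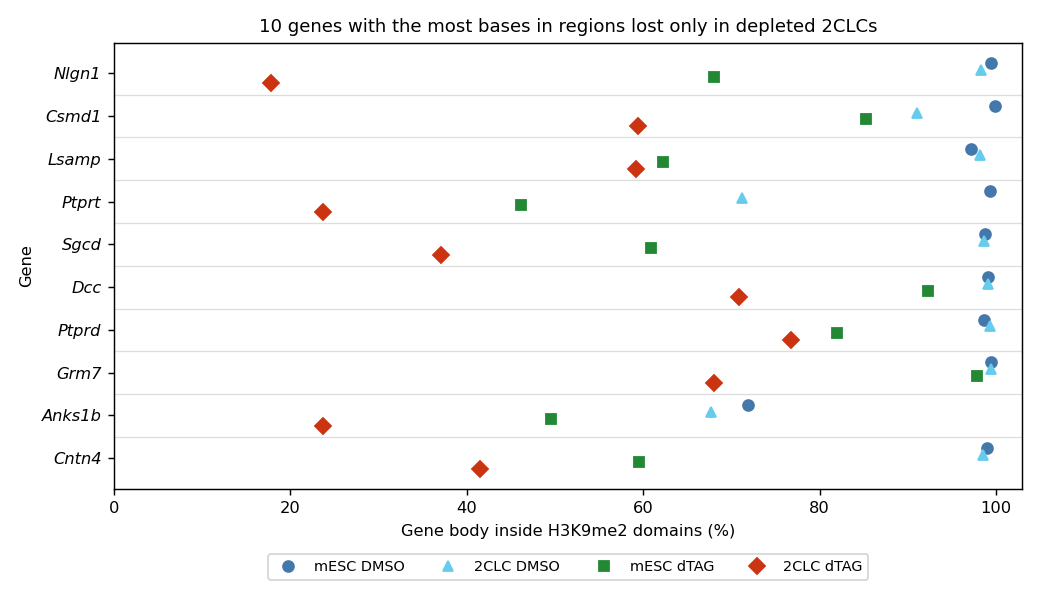
Percentage of the gene body inside H3K9me2 domains (x axis) in the 4 sorted sets for the 10 genes with the most bases in members. The 2CLC dTAG diamonds are the lowest in each gene, from 17.8% in Nlgn1 to 76.7% in Ptprd.

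Lists of genes by family gave the following counts, all beside a background of 3.26% for starts and 7.89% for bodies. Olfactory and vomeronasal receptors, listed together with trace amine and taste receptors, supply 1213 of the 3193 starts and 1238 of the 4143 bodies behind it. Their shares, 1.32% and 2.02%, lower the background for the other lists. Of 80 adhesion and axon guidance genes with bases in the other 3 sets, 32 overlapped a member, or 40.0%, and their median length was 302 kb. The overlap was 13 of 39 among ion channel genes and 12 of 28 among neurotransmitter receptor genes, with median lengths of 298 and 224 kb. Among all genes, 17.3% of those from 100 to under 300 kb and 32.6% of those from 300 to under 1000 kb overlapped a member, and family was not separated from length. At starts the numbers were small, with 3 of 31, 4 of 10 and 2 of 10. The adhesion genes with a start in a member were Adgrl4, Sema3d and Sema6d, the last 2 encoding semaphorins of axon guidance. The ion channel genes were Kcnip4, an interactor of Kv4 potassium channels, Trpa1, the irritant receptor of sensory neurons, Trpv5, a calcium channel of the kidney, and Kcnj16, an inward rectifier that falls outside the naming rule. The body of Trpa1 lay wholly inside its member. As the rule sets in that case, it was 100% inside domains of the other 3 sets and 0% inside 2CLC dTAG domains. The receptor genes were Gabra6 and Chrm3, which encode a GABA receptor subunit and a muscarinic acetylcholine receptor.

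Of 35 genes of the 2-cell programme with a start in the other 3 sets, 0 were outside 2CLC dTAG domains, beside 195 of 3193 starts, or 6.11%, over all protein-coding genes. No body of these genes overlapped a member. At such a background few of 35 starts would be outside, and nothing particular to the list is read from the count. No pluripotency gene and no Hox gene had its start in the other 3 sets. Among genes of H3K9 methylation, 2 had, and Kdm4c, which encodes a demethylase of H3K9, had its start in a member of 25 kb, the smallest width kept. That region at chr4:74219520-74244519 reaches 2.02 kb into the gene, and the gene body as a whole had more coverage in 2CLC dTAG than in the other sets, at 31.4% against 8.18% in mESC DMSO, 5.12% in 2CLC DMSO and 13.5% in mESC dTAG. Of the retinoic acid genes, 0 of 1 starts were in a member. Of 2 bodies of that list in the other 3 sets, 1 overlapped a member, that of Aldh1a1, which encodes a retinaldehyde dehydrogenase.

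The largest list was the olfactory and vomeronasal receptors, with 16 of 1213 starts in members, or 1.32%, below a background that includes them. Olfr996 lay in a region of 70 kb, and Olfr481, Olfr482 and Olfr483 shared one of 45.0 kb. Among zinc finger genes 0 of 40 starts were in a member, and 0 of 67 bodies overlapped one. Among matrix genes 0 of 18 starts were in a member. Of 33 matrix gene bodies in the other 3 sets, 5 overlapped one, or 15.2%: Col3a1, Col5a2, Adamtsl1, Lama2 and Col22a1. The 33 had a median length of 130 kb, and 17.3% of all genes from 100 to under 300 kb overlapped a member. Cytokine genes had 3 of 25, the receptor genes Il1rl1 and Il18r1 in a shared region of 75 kb and Tnfsf8, the ligand of CD30. Solute carriers had 4 of 31, of which Slc30a8, the zinc transporter of insulin granules, Slc15a5 and Slc39a10 lay in the wider regions, and Slco1c1 was the fourth. Cytochrome P450 genes had 2 of 57, Cyp2e1 and Cyp2b13, and serpins 1 of 31, Serpina3c. Growth factors, developmental transcription factors and germline genes had 0 of 6, 0 of 2 and 0 of 1.

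The ends of the members were read against the domain boundaries, as a description, since the rule sets them. Of 1632 ends, 840, or 51.5%, met a 2CLC dTAG domain, at 573 a mESC dTAG domain ended, and at 307 a DMSO domain of either state ended. A 2CLC dTAG domain met both ends of 179 members, 1 end of 482 and no end of 155. A total of 63 members were a whole mESC dTAG domain, and 10 were a whole 2CLC DMSO domain. With a distance of up to 10 kb allowed, 274 members, or 33.6% (30.4% to 36.9%), were gaps between 2CLC dTAG domains, 445, or 54.5%, were at an edge, and 97, or 11.9%, were isolated from them. In the mirrored case, regions lost only in mESCs against mESC dTAG domains, gaps made up 20.5% (18.3% to 23.0%) and isolated regions 21.7%. The gap share was higher for 2CLC losses on 16 of 19 chromosomes.

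The members also sat deeper in the domains of the other state. An end at a mESC dTAG domain edge was found for 510 members, or 62.5% (59.1% to 65.8%), against 73.6% (70.9% to 76.1%) in the mirrored case, with a higher share for 2CLC losses on 1 of 19 chromosomes. At least 100 kb from both edges of the mESC dTAG domain were 92 members, or 11.3% (9.28% to 13.6%), against 45 of 1121 regions, or 4.01% (3.01% to 5.33%). The dTAG sets themselves differ in number, with 8281 domains in 2CLCs and 6770 in mESCs, and the part of this in the shares was not tested.

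**Figure D4:**
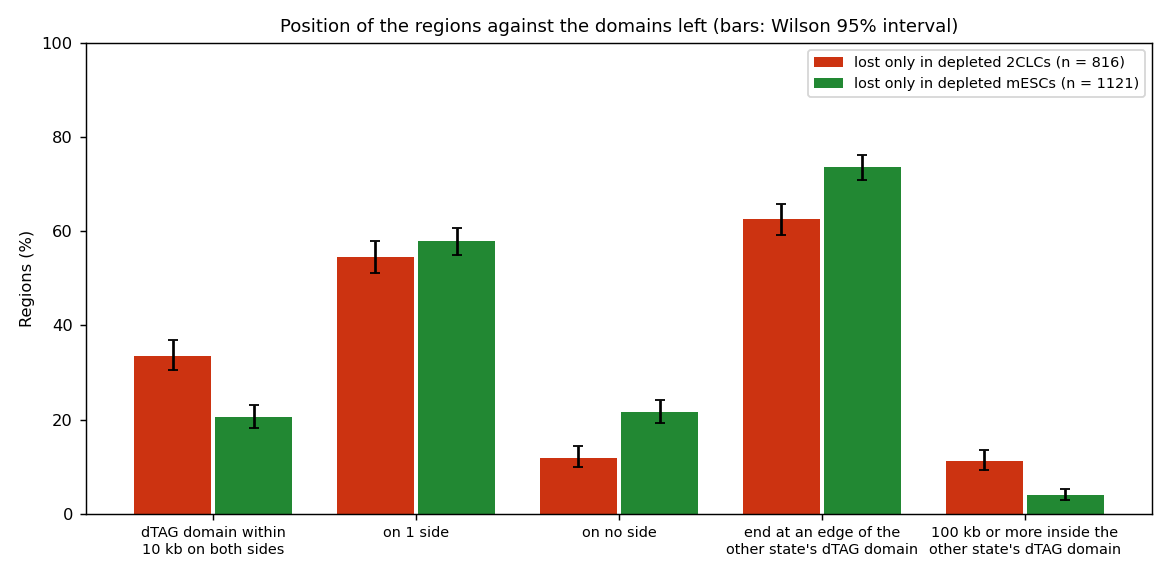
Percentage of regions (y axis) by position against the dTAG domains left in the same state (first 3 pairs of bars) and against the dTAG domains of the other state (last 2 pairs), with Wilson 95% intervals over regions. Gaps are 33.6% of the losses in 2CLCs and 20.5% of those in mESCs.

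Members lay in 626 of 3870 2CLC DMSO domains, or 16.2%. A single member was held by 492 of these domains, and 134 held 2 or more. Wider domains have more room for regions, and whether the members lie closer together than their number and the widths of the domains would give was not tested. The holding domains had a median width of 385 kb, against 120 kb for all. A median of 66.8% of their length was still in 2CLC dTAG domains and 83.3% in mESC dTAG domains. The choice of members favours this order, since every holding domain has bases inside mESC dTAG and outside 2CLC dTAG domains. Over the chromosomes compared as a whole, 2CLC dTAG domains covered 46.7% and mESC dTAG domains 44.6%. The domain that spans 1590 kb on chromosome 7 (chr7:76974560-78564557) held 7 members, which made up 24.5% of its length. The 2520 kb domain on chromosome 3 that contains the Adgrl4 region held 6. In 49 holding domains no base was left in 2CLC dTAG. Another member was found within 1000 kb of 592 members, or 72.5%, and within 100 kb of 203.

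Chromosomes differed in the share that left. Of the bases in the other 3 sets, 14.2% were outside 2CLC dTAG domains on chromosome 19, 10.7% on chromosome 11 and 9.81% on chromosome 8, against 3.73% on chromosome 4 and 3.98% on chromosome 17. The share was below the mirrored share of mESCs on 14 of 19 chromosomes. Chromosome 8 departed most in the other direction, with 9.81% against 4.95%, and its 900.0 kb region of repeated sequence makes up 900.0 kb of the 3.75 Mb of members there. Members numbered from 20 on chromosome 17 to 68 on chromosome 3.

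**Figure D5:**
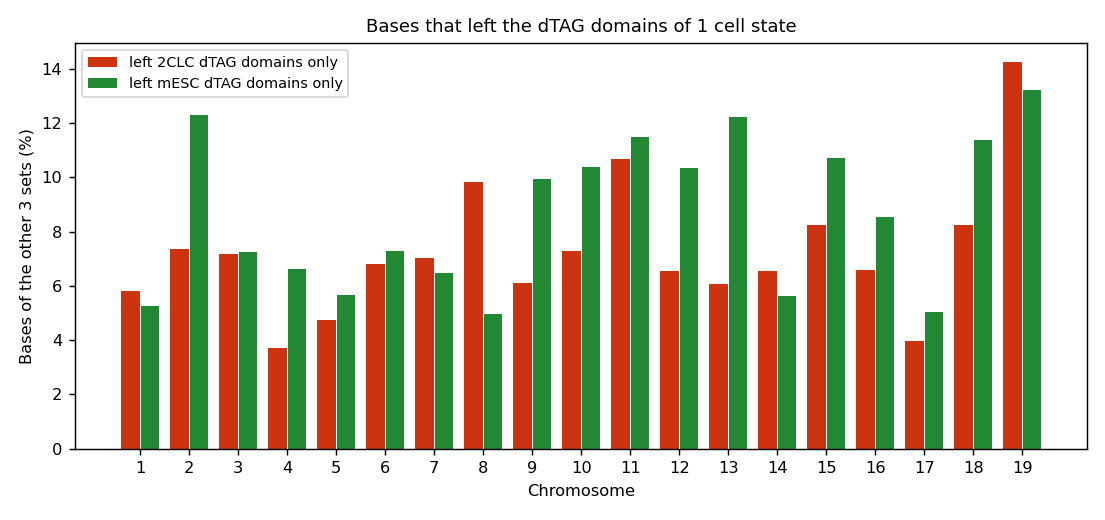
Percentage of the bases of the other 3 sets (y axis) that lay outside 2CLC dTAG domains (red) or, mirrored, outside mESC dTAG domains (green), by chromosome (x axis). Chromosome 19 has the highest share in 2CLCs, at 14.2%, and chromosome 4 the lowest, at 3.73%.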

How the data were processed

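H3K9me2 was measured by ULI-NChIP in sorted mESCs and 2CLCs. Per the study's methods, the authors aligned reads with STAR (2.7.10 in the submitters' processing notes) in a mode that assigns multi-mapping reads, removed duplicates and high-signal regions, averaged scaled coverage in windows on a 5 kb grid of mm10 and took log2 of ChIP over input per bin. Domains start from bins above a high percentile and extend to a low one. Pooling of replicates and whether percentiles were set per set are not stated. The deposited sets give positions, counted from 0, with a score of 0 throughout, and depth is unknown.

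Overlaps were computed with Python 3.11.15 and numpy 2.4.6 on chromosomes 1 to 19. Coordinates are printed 1-based. Sequence came from GRCm38.p6, and genes from GENCODE M21 (20807 protein-coding genes). Shares carry Wilson and medians order-statistic 95% intervals. The interval code was checked on simulated data. No test was run. The members and gene lists were chosen with earlier results of these data known. Genes named are those starting in the 12 widest regions, the 10 with most bases in regions, genes of the 2-cell, pluripotency, H3K9 and retinoic acid lists with a start in a region, and up to 3 of each other list by region width. Other genes named were chosen after their values were seen.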

Additional observations from a re-analysis of the deposited data

How the results depend on the processing

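No paired analysis was possible because the files hold 1 domain set per condition and no value per replicate, and leaving out replicates could not be run for the same reason. Of 139 values recomputed under other settings, 43 moved beyond their interval or by over 1.5 times. With a minimum run of 10 kb there were 1820 regions with a median width of 20 kb, a soft-masked share of 26.8% and 1.84% repeated words. Regions without a gene start were then 92.5%, gaps 41.2%, edges 51.0%, isolated regions 7.80%, regions with an end at a mESC dTAG edge 55.5%, and the 2CLC share of losses in 1 state only 45.2%, against 42.1% in the report's setting. With a minimum of 50 kb there were 314 regions of 26.0 Mb, with a median width of 67.5 kb, a GC content of 39.0%, 38.5% gaps and 49.7% edges. Merging segments up to 10 kb apart gave 46.0% gaps, 46.3% edges, 7.70% isolated regions and 53.8% with an end at a mESC dTAG edge. With sorted domains of at least 50 kb only, the median width was 47.5 kb, GC content 39.8%, soft-masked share 31.0%, repeated words 3.74%, isolated regions 17.2%, the 2CLC share 45.8% and regions with an end at a mESC dTAG edge 66.3%. Widening was applied only to dTAG domains that a region had to be outside. For the members these were the 2CLC dTAG domains, and mESC dTAG domains and kept regions were unchanged. Widening by 5 kb gave 14.3% isolated regions. Widening by 10 kb gave 17.6% isolated regions, 28.3% gaps, 92.4% without a gene start and 3.92% of bases outside 2CLC dTAG domains. With all annotated genes there were 10.0 starts per Mb and 66.7% of regions without one, and counting overlaps of gene bodies with regions gave 10.3 overlaps per Mb, in which a gene with several regions counts once for each. By bodies instead of starts, members overlapped 32 of 80 adhesion and guidance, 13 of 39 ion channel and 12 of 28 neurotransmitter receptor genes. They overlapped 25 of 1238 genes of the olfactory and vomeronasal list (2.02%), 5 of 30 cytokine and 7 of 45 solute carrier genes. Among zinc finger, serpin and cytochrome P450 genes they overlapped 0 of 67, 1 of 35 and 2 of 59. Growth factors had 2 of 12, developmental transcription factors 1 of 5 and germline genes 0 of 6. The share over all protein-coding genes was 7.89%. Regions with under 5% repeated words and N, 631 in all, had a GC content of 39.3% and a soft-masked share of 26.0%. A minimum run 0.1 kb shorter and a limit of 20% repeated words were chosen after seeing the data and moved no value. The soft-masked share stayed below that of kept regions in each setting, with differences from -15.7 to -10.2 percentage points. Leaving out each chromosome in turn gave 748 to 796 regions, 38.5 to 41.9 Mb and soft-masked shares of 27.7% to 28.1%.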

Other observations

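Chromosome X was left out of the comparisons. By the same rule it held 34 regions lost only in depleted 2CLCs, 1.24 Mb in all with a largest width of 65 kb, beside 85 lost only in depleted mESCs, 50 lost in both cell states and 553 kept in all 4 sets.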
